A study of Mus musculus with 6 samples.

Results

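The open chromatin around 9 genes of the Hedgehog pathway was compared between 3 sorted keratinocyte populations of mouse back skin. The genes were the receptor gene Ptch1, the ligand-binding antagonist gene Hhip, the co-receptor genes Boc and Gas1, the signal transducer gene Smo, its downstream inhibitor gene Sufu, and the transcription factor genes Gli1, Gli2 and Gli3. A consensus region was a stretch of overlapping peaks merged over the 6 libraries, and it was given to 1 of the 9 genes when that gene had the nearest protein-coding gene span, at most 50 kb away in mm10. This selected 92 of 75738 consensus regions, of 62802 that had any protein-coding gene within that distance.

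The assay was ATAC-seq, which marks accessible DNA by the insertions of a transposase, on libraries of 50000 sorted cells. Touch dome cells, from the keratinocyte patches around some hair follicles that hold the Merkel cells, were positive for EPCAM, SCA1, α6-integrin and tdTomato. For hair follicle (HF) cells the gate was EPCAM and α6-integrin positive, with neither SCA1 nor tdTomato. Interfollicular epidermis (IFE) cells were positive for EPCAM, α6-integrin and SCA1 and negative for tdTomato. All 3 populations came from C57BL/6 mice of the genotype TNC-CREER; tdTomato, 60 days old, that had received tamoxifen (100 µg per g body weight) on days 51 and 52. The reporter therefore marks cells in which a Cre under control of the tenascin-C gene had been active, and cells of a touch dome that had not recombined would sort with IFE. Each population had 2 libraries, and nothing in the labels says whether they came from separate animals, so their spread may be technical.

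Hedgehog ligands bind the receptor PTCH1 on the receiving cell and relieve its block on SMO, which then frees the GLI factors from SUFU at the primary cilium. BOC and GAS1 help the ligand to bind, while HHIP takes it up without passing on a signal. Ptch1, Hhip and Gli1 are themselves well-known targets of the pathway, GLI2 acts mostly as its activator and GLI3 mostly as a repressor. In skin the pathway is known for hair follicle growth, for the Gli1-expressing cells of the upper bulge and for touch dome keratinocytes, which receive Sonic hedgehog from sensory nerves.

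Of the 9 genes, 7 had a promoter window in the RefSeq table (GRCm38.p6, the assembly behind mm10), and each of those 7 start sites lay inside a consensus region. Hhip was the exception among them in that the region at its start site was open in HF libraries alone. The 250 bases upstream of the start are shown for Hhip and, for contrast, for the receptor and transducer genes Ptch1 and Smo. The consensus regions that hold the Ptch1 and Smo start sites had a peak in all 6 libraries. Whether each library's own peak covered the start itself was not checked. Capitals mark the bases that lie inside the consensus region.
Hhip, chr8:80058009-80058258, minus strand: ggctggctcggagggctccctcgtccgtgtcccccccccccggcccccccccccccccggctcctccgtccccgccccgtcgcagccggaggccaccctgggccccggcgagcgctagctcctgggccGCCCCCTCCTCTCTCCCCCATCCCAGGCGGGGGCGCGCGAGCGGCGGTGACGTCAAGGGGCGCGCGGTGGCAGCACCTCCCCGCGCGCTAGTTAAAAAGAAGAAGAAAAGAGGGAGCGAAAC
Ptch1, chr13:63565736-63565985, minus strand: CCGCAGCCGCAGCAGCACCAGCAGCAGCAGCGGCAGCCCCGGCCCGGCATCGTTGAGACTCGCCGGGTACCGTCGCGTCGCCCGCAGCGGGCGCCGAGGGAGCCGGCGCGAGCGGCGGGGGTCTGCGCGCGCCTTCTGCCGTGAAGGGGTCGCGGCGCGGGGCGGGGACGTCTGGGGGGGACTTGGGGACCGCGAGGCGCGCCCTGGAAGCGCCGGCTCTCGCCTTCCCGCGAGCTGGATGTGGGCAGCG
Smo, chr6:29735247-29735496, plus strand: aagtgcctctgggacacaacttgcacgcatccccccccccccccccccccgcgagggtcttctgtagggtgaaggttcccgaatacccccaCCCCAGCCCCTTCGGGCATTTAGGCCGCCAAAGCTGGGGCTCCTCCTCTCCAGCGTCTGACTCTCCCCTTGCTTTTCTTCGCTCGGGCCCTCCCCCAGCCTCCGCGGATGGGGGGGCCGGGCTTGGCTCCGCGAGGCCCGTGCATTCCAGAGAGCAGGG

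At Hhip the consensus region (chr8:80057290-80058130) took in the start site at 80058008 and the 122 upstream bases nearest to it. The 300-base promoter windows run from 250 bases before the start to 50 after it. They held 73.7% G and C at Hhip, 76.3% at Ptch1 and 67.7% at Smo. The median was 52.7% over 32851 promoters and 61.3% over the 14307 whose start lay in a consensus region. The letters GACCACCCA, the motif of GLI factors, were in none of the 7 windows on either strand, and neither was any run that differed from them at 1 position. Over all promoters 0.253% held the exact motif and 6.74% a run with at most 1 mismatch. Over promoters whose start lay in a consensus region these shares were 0.189% and 6.95%. The AP-1 motif TGANTCA, the same on both strands, was likewise in none of the 7. It was in 7.81% of all promoters and 5.88% of those whose start lay in a consensus region. A missing match says only that these letters were not in these windows.

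The lists held 50153 and 59250 peaks for touch dome, 54844 and 57131 for HF and 52219 and 51124 for IFE. With neither read counts nor heights given, depth is unknown, and a region without a peak may still be accessible. A region open in part of the sorted cells cannot be told apart from one that is weakly open in all of them. Of the 4 genes behind the gates, Tnc and Ly6a differed in the direction of the sort. The tenascin-C gene Tnc had a peak in 17 and 17 of its 17 regions in touch dome libraries, 13 and 12 in HF and 11 and 11 in IFE. Ly6a, which encodes SCA1, had 4 and 4 of 5 in touch dome, 2 and 2 in HF and 5 and 5 in IFE. Epcam had 6 and 7 of 7 in touch dome, 7 and 7 in HF and 7 and 6 in IFE. Itga6, the gene of α6-integrin, for which all 3 gates were positive, had 14 and 14 of 23 in touch dome, 9 and 9 in HF and 20 and 15 in IFE. The hair follicle list (Lhx2, Lgr5, Sox9, Krt17 and Cd34) summed to 30 and 36 open regions of 49 in touch dome, 43 and 45 in HF and 23 and 22 in IFE.

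Regions of the 9 genes were open most often in HF, less often in touch dome and least often in IFE. Touch dome replicates 1 and 2 had a peak in 64 and 75 of the 92 regions, the HF libraries in 75 and 76 and the IFE libraries in 57 and 56. Both touch dome libraries lay above both IFE libraries, touch dome replicate 2 equalled the lower HF library, and HF and IFE did not overlap. Means were 69.5 ± 7.78 in touch dome, 75.5 ± 0.707 in HF and 56.5 ± 0.707 in IFE (SD, n = 2 each).

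The touch dome minus IFE difference was 13 regions (exact permutation test over libraries, two-sided, p = 0.333), and the HF minus IFE difference was 19 regions (exact permutation p = 0.333). With 2 libraries against 2, 0.333 is the smallest p the design allows. Touch dome and HF differed by -6 regions (exact permutation p = 0.667), which the 2 touch dome replicates exceeded in their own difference. Leaving out touch dome replicate 1 gave differences of 18.5 regions from IFE and -0.5 from HF, and leaving out touch dome replicate 2 gave 7.5 and -11.5. Over all 62802 regions near genes, the share with a peak was 66.5% and 78.4% in touch dome, 72.4% and 74.8% in HF and 71.2% and 68.7% in IFE. The means there had the same order as at the 9 genes, at 73.62% in HF, 72.45% in touch dome and 69.95% in IFE. At the 9 genes they were further apart, at 82.07%, 75.54% and 61.41%. Over all regions near genes the touch dome replicates lay on either side of all other libraries. Touch dome replicate 1 was the lowest library there, whereas at the 9 genes its share of 69.6% stood above 62.0% and 60.9% in the IFE libraries.

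**Figure D1:**
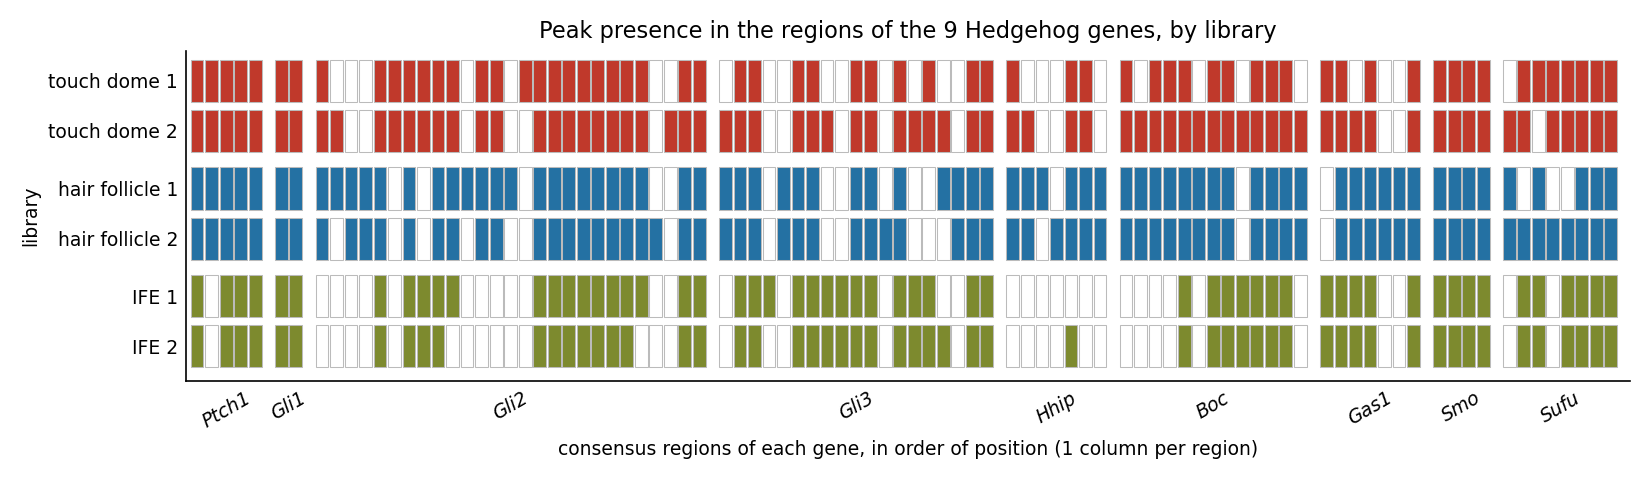
Peak presence (filled) or absence (open) in each of the 92 consensus regions, 1 column per region in order of position within each gene, for the 6 libraries in rows. All columns of Smo and Gli1 are filled, while Hhip is nearly empty and the first columns of Boc are mostly empty in the IFE rows.

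The summed length of peaks at these regions gave the same order of means. Touch dome libraries had 60.2 and 75.2 kb, against 83.2 and 77.7 kb in HF and 57.3 and 54.8 kb in IFE. Touch dome exceeded IFE by 11.7 kb, HF exceeded IFE by 24.5 kb, and touch dome minus HF was -12.8 kb (exact permutation p = 0.333 for each, the smallest possible). No populations overlapped. The touch dome minus IFE difference was 19.2 kb without touch dome replicate 1 and 4.2 kb without replicate 2, and touch dome minus HF was -5.29 kb and -20.3 kb. Per Mb of all peaks of the same library, a scale chosen after the values were seen, the length was 1280 and 1276 bp in touch dome, 1537 and 1451 bp in HF and 1079 and 1099 bp in IFE. On that scale the touch dome replicates differed by less than those of HF or IFE.

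**Figure D2:**
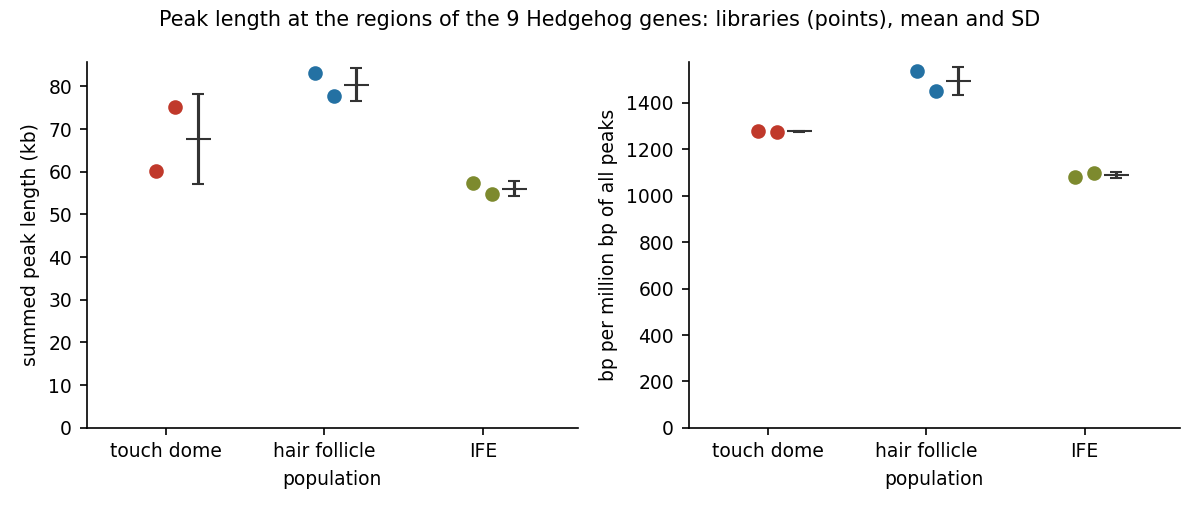
Summed peak length at the 92 regions per library (points) with the mean and SD (n = 2), in kb on the left and in bp per Mb of all peaks of the same library on the right. Touch dome lies between HF and IFE on both scales, and its replicates come together on the right, at 1280 and 1276 bp.

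A region was called between populations when both libraries of one had a peak and neither library of the other did. Between touch dome and IFE, 11 of the 92 regions (12%) were called toward touch dome and 1 (1.09%) toward IFE, where 4.48% and 1.82% of all regions near genes were called in these directions. Between HF and IFE, 22 regions (23.9%) were called toward HF and 7 (7.61%) toward IFE, beside backgrounds of 12.8% and 9.91%. Between touch dome and HF, 4 regions (4.35%) were called toward touch dome and 7 (7.61%) toward HF, beside backgrounds of 8.02% and 7.26%. The shares toward touch dome and toward HF against IFE thus stood above the background, and the share toward HF against touch dome was near it. The other 3 were below it, on 4, 1 and 7 regions, and no difference is read from counts so small. Without touch dome replicate 1 the count toward touch dome was 19 against IFE and 8 against HF, and it was 7 against HF without HF replicate 2. The count toward HF against touch dome was 14 without touch dome replicate 2, and that toward IFE against touch dome was 5 without that same library and 2 when touch dome replicate 1 or IFE replicate 2 was left out. With gene windows of 10 and 100 kb, 13 and 34 regions were called toward HF against IFE. These shares are descriptions of the libraries, since the genes were chosen with earlier results of these data known.

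**Figure D3:**
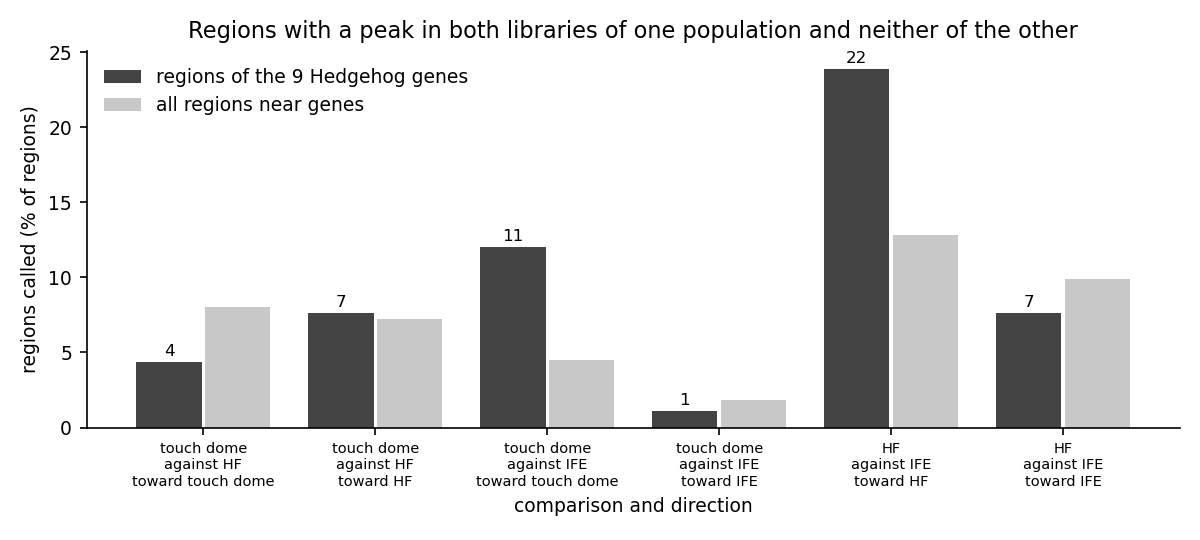
Percent of regions called in each comparison and direction, for the regions of the 9 Hedgehog genes (dark bars, with their number above) and for all regions near genes (light bars). The dark bars stand well above the light ones toward touch dome against IFE (12% and 4.48%) and toward HF against IFE (23.9% and 12.8%).

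Most regions called toward touch dome against IFE were open in HF as well, at the 9 genes and near all genes alike. Of the 11 touch dome regions, 9 had a peak in both HF libraries, 1 in HF replicate 2 and 1 in neither. The share open in both HF libraries was 81.8% (9 of 11), against 73.1% of the 2814 such regions near all genes. The 9 shared regions lay at Gli2 (3), Boc (3), Hhip (2) and Ptch1 (1), and made up 9.78% of the 92 regions, where regions of this pattern made up 3.28% of all regions near genes. Of the 22 regions called toward HF against IFE, those 9 (40.9%) had peaks in each touch dome library and 7 (31.8%) in neither, against 25.6% and 48.7% of the 8029 such regions near all genes. The other 6 (27.3%) had a peak in touch dome replicate 2 and none in touch dome replicate 1, near the share of 23.9% over all genes.

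The peak sets of touch dome at these regions were about as similar to those of HF as to those of IFE. By the Jaccard index, shared peak length over joint peak length, touch dome and HF libraries scored 0.625 ± 0.0343 and touch dome and IFE libraries 0.641 ± 0.00648 (SD over 4 library pairs each). HF and IFE libraries were further apart, at 0.482 ± 0.0184 (SD over 4 library pairs). Replicates scored 0.714 in touch dome, 0.787 in HF and 0.813 in IFE. The library pairs share libraries, so the SDs are not over independent values. No index over all regions near genes was computed to set beside these.

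Among the receptors and antagonists, Hhip showed the widest contrast with IFE in its share of open regions. Hhip (NCBI gene 15245, chr8:79965850-80058060) had 7 regions, of which 3 and 4 had a peak in touch dome libraries, 6 and 6 in HF and 0 and 1 in IFE. Their summed peak length was 1974 and 2505 bp in touch dome, 5751 and 5600 bp in HF and 0 and 321 bp in IFE. The 3 populations did not overlap in either measure.

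At Hhip 2 regions were called toward touch dome against IFE, and both were open in HF too. The first (chr8:79943746-79944802), 21048 bp outside the span on the side away from the start, had peaks of 561 and 705 bp in touch dome and 1047 and 1015 bp in HF. The second, inside the span (chr8:80006701-80008084), had peaks of 352 and 420 bp in touch dome and 1384 and 1323 bp in HF. HF peaks were the longer ones in both regions. A further region in the span (chr8:79992238-79993502) was open in every touch dome and HF library, with 1061 to 1265 bp of peak, and had a peak of 321 bp in IFE replicate 2 alone of the IFE libraries. The start site region, with peaks of 824 and 841 bp in HF, was the only Hhip region called between touch dome and HF. Without touch dome replicate 1, or without IFE replicate 2, the net number of Hhip regions toward touch dome against IFE was 3.

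Ptch1 (NCBI gene 19206, chr13:63508328-63573460), the receptor, was open nearly throughout. All 5 of its regions had a peak in both touch dome and both HF libraries, and 4 had one in both IFE libraries. The exception (chr13:63556127-63557370), inside the gene span, had peaks of 772 and 812 bp in touch dome, 1044 and 1127 bp in HF and none in IFE. The start site region (chr13:63563426-63566847), the widest of the 92 at 3422 bp, was covered for 1983 and 3253 bp in touch dome, 1830 and 1900 bp in HF and 3263 and 2698 bp in IFE. Unlike the sum over the 9 genes, its covered length was greater in both IFE libraries than in both HF libraries, and the touch dome libraries stood on either side of the IFE value of 2698 bp.

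Boc (NCBI gene 117606, chr16:44485045-44558870), the co-receptor, had 9 and 13 of its 13 regions open in touch dome, 12 and 12 in HF and 7 and 7 in IFE. It had 3 regions called toward touch dome and none toward IFE between these populations, and 6 toward HF and 1 toward IFE between HF and IFE. No Boc region was called between touch dome and HF. The net number toward touch dome against IFE was 6 when touch dome replicate 1 was left out and 2 when its replicate 2 was, and the net number against HF was 1 and -3 in these settings. The touch dome replicates disagreed at 4 regions, each with a peak in replicate 2 alone, and 3 of those 4 were open in both HF libraries and closed in IFE.

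Most of the regions that differed at Boc lay at one end of the gene. In the 6 regions from 44484227 to 44517296 on chromosome 16, touch dome libraries had 4 and 6 open, HF libraries 6 and 6 and IFE libraries 1 and 1, with peak lengths of 3252 and 5342 bp, 7895 and 6113 bp, and 1496 and 1428 bp in the same order. In the next 6 regions, from 44526214 to 44560263, touch dome libraries had 5 and 6 open, HF libraries 5 and 5 and IFE libraries 6 and 6. The split into these 2 stretches was made after the values were seen. Within the first stretch the 3 regions called toward touch dome and open in HF were chr16:44484227-44485118, which covers the lower end of the gene span, chr16:44501980-44503459 and chr16:44506509-44507693. The middle one had peaks of 1131 and 1290 bp in touch dome, 1407 and 1348 bp in HF and none in IFE.

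**Figure D4:**
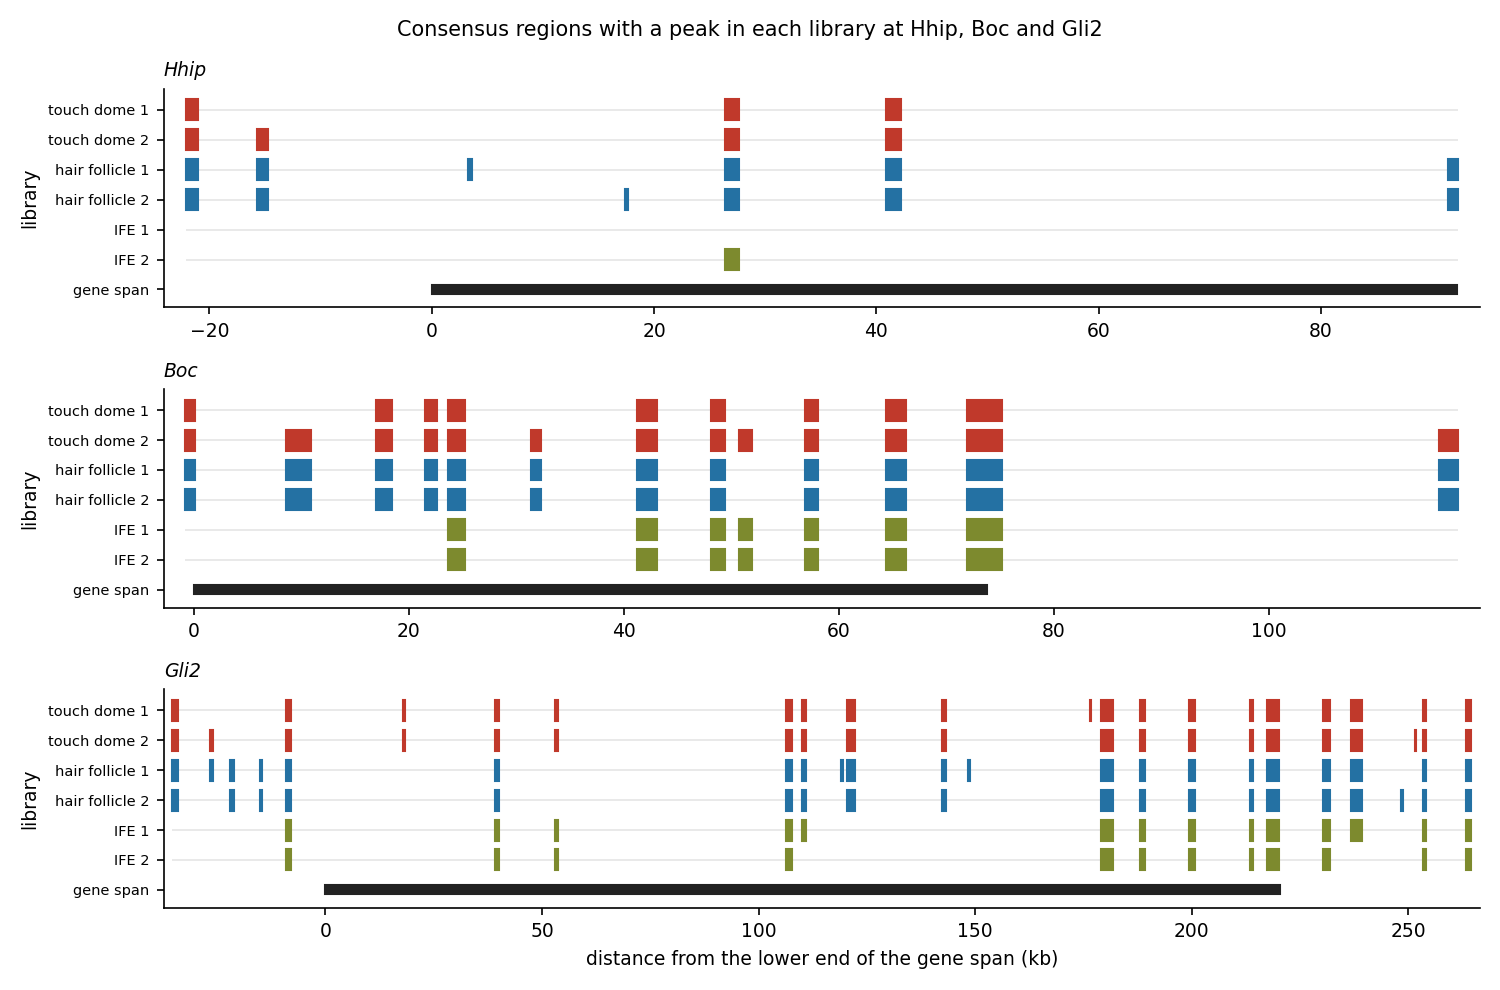
Consensus regions with a peak in each library at Hhip, Boc and Gli2, by distance in kb from the lower end of the gene span (black bar); each block has the width of the merged region, not of the library's own peak. IFE rows are almost empty at Hhip and in the first part of Boc, whereas all 6 rows match over the last part of the Gli2 span.

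Gas1 (NCBI gene 14451, chr13:60174405-60177535), the other co-receptor, had as many or more regions open in IFE than in touch dome. Of its 7 regions, 4 and 5 were open in touch dome, 6 and 6 in HF and 5 and 5 in IFE. None was called between touch dome and IFE. A region 8193 bp from the gene (chr13:60165144-60166212) was open in touch dome (1069 and 670 bp of peak) and IFE (657 and 558 bp) and closed in HF. On the other side, chr13:60214178-60214889 and chr13:60217315-60217861 were open in HF alone, 36643 and 39780 bp away. The region over the gene itself (chr13:60175915-60178668) was open in all libraries, with 2657 to 2667 bp of peak in touch dome, 2400 to 2442 bp in HF and 2714 to 2721 bp in IFE.

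Smo (NCBI gene 319757, chr6:29735497-29761366), the transducer, did not differ in peak presence. Each of its 4 regions had a peak in all 6 libraries, and its summed peak length was 3606 and 3687 bp in touch dome, 3269 and 3346 bp in HF and 3398 and 3572 bp in IFE. Touch dome lengths were above those of HF and IFE, and HF lengths were below those of IFE. Sufu (NCBI gene 24069, chr19:46396896-46488804), the inhibitor, had 7 and 7 of 8 regions open in touch dome, 5 and 8 in HF and 6 and 6 in IFE. Its HF replicates differed more than the populations did. In the comparison with IFE, 1 Sufu region (chr19:46457408-46457955) was called toward touch dome, and it had a peak in HF replicate 2 and none in HF replicate 1. The region over the Sufu start site (chr19:46394896-46397239) also covered an end of Actr1a, was given to that gene and had a peak in all 6 libraries.

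**Figure D5:**
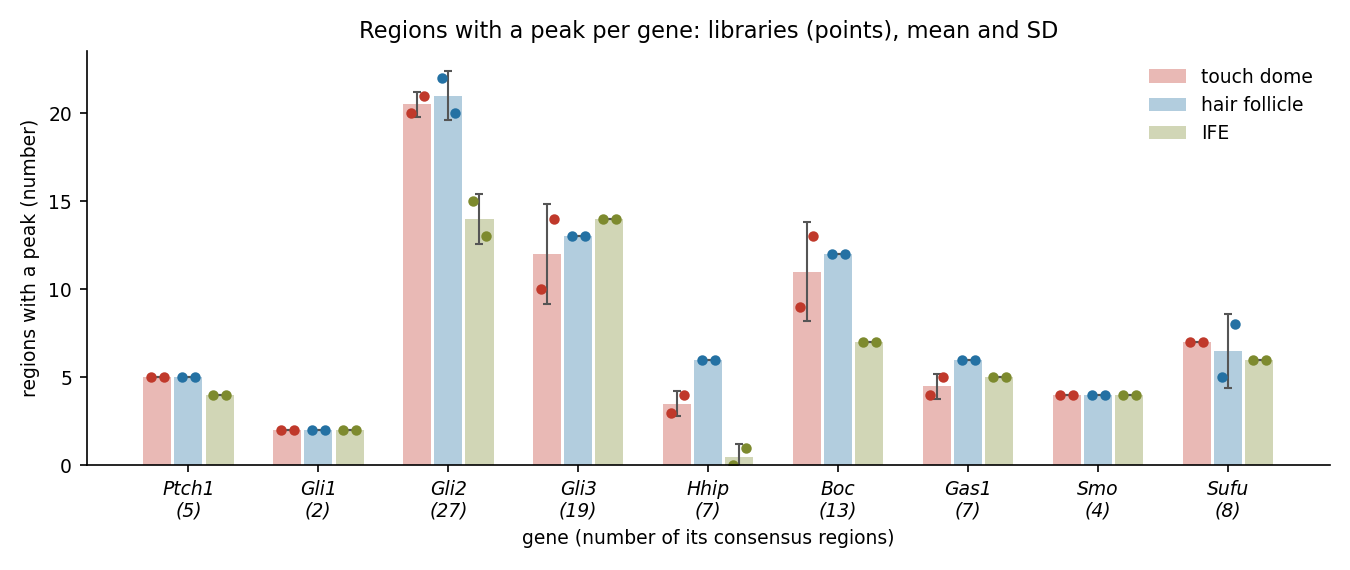
Number of regions with a peak in each library (points) with the mean (bar) and SD (n = 2), for each gene, with the number of its regions in parentheses. IFE lies furthest below the other populations at Gli2, Hhip and Boc, with means of 14.0, 0.5 and 7.0, and the populations are level at Smo and Gli1.

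Gli2 (NCBI gene 14633, chr1:118834061-119054405), the main activator, had the most regions and the largest difference from IFE in their number. Of its 27 regions, 20 and 21 were open in touch dome, 22 and 20 in HF and 15 and 13 in IFE. Means were 20.5 ± 0.707 in touch dome, 21.0 ± 1.41 in HF and 14.0 ± 1.41 in IFE (SD, n = 2 each). Touch dome and HF overlapped, and both lay above IFE. Summed peak length was 17173 and 19522 bp in touch dome, 23009 and 20405 bp in HF and 11136 and 9697 bp in IFE, with no overlap between populations.

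Against IFE, 4 Gli2 regions were called toward touch dome and none toward IFE, and 3 of the 4 were open in HF. The net number was 6 without touch dome replicate 1 or IFE replicate 1. The 3 open in HF were chr1:118798732-118800093, which lay 33968 bp outside the span on the side away from the start, and chr1:118954559-118956304 and chr1:118976409-118977402 inside it. The fourth (chr1:118852009-118852402), of 394 bp, was the 1 region of the 92 with a peak in each touch dome library and in no other. Regions open in HF alone were chr1:118812010-118812879 and chr1:118818937-118819521, on the same outer side. Of the 5 regions on that side, 2 and 3 were open in touch dome, 5 and 4 in HF and 1 and 1 in IFE. Among the 6 regions on the side of the start, counts were 4 and 5 in touch dome, 4 and 5 in HF and 4 and 3 in IFE. A region in the span (chr1:118887144-118887835) was open in touch dome and IFE and closed in HF.

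Gli3 (NCBI gene 14634, chr13:15463723-15730026), the main repressor, was not lowest in IFE. Of its 19 regions, 10 and 14 were open in touch dome, 13 and 13 in HF and 14 and 14 in IFE. The touch dome replicates differed by more than the population means did. Gli3 held the 1 region of the 92 that was called toward IFE against touch dome (chr13:15510867-15511235), with peaks of 331 and 311 bp in IFE, and it was closed in HF too. The net number of Gli3 regions between touch dome and IFE was -3 with touch dome replicate 2 left out, 0 with its replicate 1 left out and -2 in the absence of IFE replicate 2. Between HF and IFE, 3 Gli3 regions were called toward HF and 4 toward IFE, of the 7 toward IFE at all 9 genes. That net number was 0 without HF replicate 1 and -2 without IFE replicate 2. Among the 4, 1 region (chr13:15609656-15610979) was open in touch dome as well, with 1018 and 1092 bp of peak beside 1265 and 1008 bp in IFE. Another 2 (chr13:15483332-15484816 and chr13:15590878-15591351) had a peak in touch dome replicate 2 alone of the touch dome libraries. Regions open in HF alone were chr13:15457811-15458198 and chr13:15676851-15677568.

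Gli1 (NCBI gene 14632, chr10:127329882-127341579), the pathway's own target, had 2 regions, and both had a peak in all 6 libraries. The region in the span (chr10:127338762-127340718) had 1512 and 1676 bp of peak in touch dome, 1689 and 1919 bp in HF and 1649 and 1398 bp in IFE. Both HF libraries lay above the others there, and touch dome and IFE overlapped. The second (chr10:127341958-127342522), 379 bp outside the span, had 503 and 502 bp in touch dome, 535 and 512 bp in HF and 458 and 427 bp in IFE.

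Of the 92 regions, 31 were called in at least 1 comparison, and no such share over all regions near genes is given here. Of the 11 regions of the 9 genes within 1 kb of an end, 9 (81.8%) were open in all 6 libraries, against 82.7% of 13425 such regions near all genes. Inside the spans and further from the ends the share was 43.4% (23 of 53), against 37.9% near all genes. Over all 92 regions it was 46.7%, against 48.2% of all regions near genes. Over all patterns the median width was 1057 bp at the 9 genes and 974 bp near all genes. For the 9 regions open in touch dome and HF alone the median was 1244 bp, against 1006 bp near all genes. Where replicates differed the medians were 968 and 723 bp in the same order. Those open in all libraries were about as wide (1309 and 1298 bp), and those with a peak in 1 library only were narrower (334 and 394 bp).

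The distance limit of 50 kb left out further regions nearest to these genes. The outermost regions inside it were at Gas1 (47596 bp, open in all libraries) and Gli3 (43442 bp, a peak in touch dome replicate 2 and both HF libraries). The first outside it were at Gli3 (51342 bp) and Ptch1 (53814 bp), both open in touch dome and HF and closed in IFE. The next, at Boc (56318 bp), was open in all libraries. Of the 22 outer regions within 100 kb, 4 were open in touch dome and HF alone.

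Of 39 other genes of the pathway, 37 had a region, with 214 regions in all. Open regions numbered 131 and 149 in touch dome, 158 and 159 in HF and 138 and 132 in IFE, so touch dome replicate 1 lay below both IFE libraries. Between touch dome and IFE, 13 regions (6.07%) were called toward touch dome and 5 (2.34%) toward IFE, beside the backgrounds of 4.48% and 1.82%. Between HF and IFE, 32 (15%) were called toward HF and 14 (6.54%) toward IFE, beside the backgrounds of 12.8% and 9.91%. Between touch dome and HF, 13 (6.07%) were called toward touch dome and 23 (10.7%) toward HF, beside the backgrounds of 8.02% and 7.26%.

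By role, the ligand genes and those for ligand release had 51 regions, of which 12 (23.5%) were called toward HF and 4 (7.84%) toward IFE between HF and IFE. The share toward HF was close to that at the 9 genes and above the background of 12.8%. Among them were Hhat, the acyltransferase that lipid-modifies the ligand (6 and 2 of 16 regions), and Disp1, which releases it (4 and 0 of 20). Shh, the ligand gene of the hair follicle, had 2 regions, of which touch dome libraries had 1 and 2 open, HF libraries 2 and 2 and IFE libraries 1 and 1. Between HF and IFE, Cdon, a co-receptor gene related to Boc, had 2 of 9 regions toward HF and 0 toward IFE. Among genes that act on GLI proteins or are targets in other tissues, Btrc, a ubiquitin ligase subunit gene, had 3 and 0 of 7. The anti-apoptotic gene Bcl2 had 4 and 0 of 17, and Mycn, a MYC family gene, had 2 and 0 of 4. Between touch dome and IFE, Bcl2 and the cell cycle kinase gene Cdk6 had 2 toward touch dome and 0 toward IFE each, of 17 and 16 regions. Between touch dome and HF, Cdk6 had 2 toward touch dome and 0 toward HF, while Hhat had 0 and 3. Btrc, Ccnd2, Foxc1 and Mycn had 0 and 2 each, of 7, 7, 9 and 4 regions. Genes that act at the cilium had 19 regions, of which 1 (5.26%) was called toward HF and 2 (10.5%) toward IFE between HF and IFE. The backgrounds were 12.8% and 9.91%, so the share toward IFE was near its background.

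Summed over each list, fibroblast and melanocyte markers, like the hair follicle list, had means in the same order of populations as the 9 genes. All regions near genes had that order of means as well. Merkel cell markers had this order too, with overlapping touch dome and IFE libraries, and 9 of their 12 regions were at Piezo2. Piezo2 had 3 and 5 open in touch dome, 7 and 9 in HF and 3 and 3 in IFE. The other Merkel genes did not show this order: Atoh1 and Krt20 had no open region in HF, and the Isl1 region was open in all libraries. Fibroblast markers, with regions at 6 of 7 genes, had 13 and 16 of 25 regions open in touch dome, 17 and 18 in HF and 11 and 8 in IFE, and Lum had none. Melanocyte markers, with regions at 3 of 6 genes, had 18 and 21 of 24 open in touch dome, 21 and 21 in HF and 13 and 13 in IFE, and Tyr, Pmel and Kit had none. Within the fibroblast list, Dpt, the gene with the most regions, ran the other way, with 5 and 6 of 9 open in touch dome, 2 and 3 in HF and 6 and 5 in IFE. Of the 24 melanocyte regions, 20 were at Mitf. Tyrp1 had 2 and 2 of 2 open in touch dome, 1 and 1 in HF and 2 and 1 in IFE. In the hair follicle list, touch dome was not above IFE at Sox9 and Krt17. Sox9 had 5 and 6 of 9 open in touch dome and 6 and 7 in IFE, and Krt17 had 2 and 2 of 3 and 3 and 2. All 3 gates were positive for EPCAM and α6-integrin, and the part of other cells in these results was not tested. Immune markers had 5 and 5 of 5 regions open in touch dome, 2 and 2 in HF and 4 and 4 in IFE, with none at Cd207 and Csf1r. For endothelial and mural markers the numbers were 10 and 11 of 13 in touch dome, 11 and 11 in HF and 13 and 11 in IFE, all at Pecam1 and none at Cdh5, Kdr and Rgs5. Schwann cell markers had 4 and 4 of 4, 3 and 3, and 4 and 3 in the same order of populations, and Merkel cell markers 4 and 7 of 12, 8 and 10, and 6 and 4. Basal keratinocyte markers had 46 and 51 of 69 open in touch dome, 43 and 47 in HF and 57 and 52 in IFE.

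Among 1421 other protein-coding genes with at least 10 regions, Snrk, Dock9, Ccdc3 and Mtus1 were among the 5 whose shares of open regions in the 6 libraries were nearest to the shares over all 92 regions. Their Euclidean distances were 0.0592 to 0.0979, against a median of 0.371 over the genes compared. At Dock9, with 25 regions, 72% and 80% were open in touch dome, 84% and 88% in HF and 60% and 64% in IFE.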

How the data were processed

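The deposited data were 6 ATAC-seq peak lists, 1 per library, that give chromosome, start, end and peak name in 4 columns and no score. Per the submitters' processing notes, the authors worked with mm10, and the tools listed are MACS2 2.2.7.1, SAMtools 1.9, Bowtie2 2.4.5 and Trim Galore 0.6.7. How each was set, whether reads were filtered or shifted for the transposase and which threshold defined a peak is not given in the sources used here. Because peaks were called per library and depth is unknown, a deeper library can gain weak peaks.

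Peaks that shared at least 1 bp were merged over the 6 libraries. Each region went to its nearest gene among 21887 protein-coding spans (RefSeq, GRCm38.p6) within 50 kb, and a region on several spans to the gene whose end was nearer its middle. Coordinates are counted from 1. Exact permutation tests were two-sided over the 6 splits of 4 libraries, with a threshold of 0.05. Region building, gene assignment and calls were tested on simulated peaks, with 0 of 167 regions, 0 of 169 gene assignments and 0 of 507 calls wrong. Python 3.11.15, pandas 2.3.3 and NumPy 2.4.6 were used.

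The 9 genes and the gene lists were chosen with earlier results of these data known. Named pathway genes were those with a net number of called regions of at least 2, at most 6 per comparison and direction. Alternatives were gene windows of 10 and 100 kb, genes of every kind, equal numbers of the widest peaks, merging within 100 bp, peaks that cover at least 50% of the region, leaving out each library and a replicate block. Stricter peak scores were not used because the lists hold none, and region sequences were not analysed here. Of the 5 genes most alike in their shares of open regions, 1 is not reported here.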

Additional observations from a re-analysis of the deposited data

How the results depend on the processing

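Touch dome above IFE and HF above IFE kept their direction in the number of open regions and in peak length under every setting run. The touch dome minus HF difference in open regions was 0 within 10 kb and otherwise negative. The counts of called regions moved most. The number of regions of these genes also changes with the gene window, and shares over all regions are given for the main setting only. Toward HF against IFE the count was 13 within 10 kb and 34 within 100 kb. Toward HF against touch dome it was 3 within 10 kb, 11 within 100 kb, 4 with genes of every kind and 12 with a cover of at least 50% of the region. Toward IFE against touch dome it was 2 within 100 kb and 2 with the 50% cover. Leaving out 1 library loosens the rule for its population. It gave 12 to 19 regions toward touch dome against IFE (19 without touch dome replicate 1), 1 to 5 toward IFE against touch dome (5 without touch dome replicate 2), 4 to 8 toward touch dome against HF (8 without touch dome replicate 1 and 7 without HF replicate 2) and 8 to 14 toward HF against touch dome (14 without touch dome replicate 2).

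Net called regions that were not 0 in the main setting changed sign at 3 genes. At Gas1 the net was -1 for HF against IFE and 1 for touch dome against HF, both within 10 kb and with genes of every kind. At Gli3 it was 1 for touch dome against HF when touch dome replicate 1 was left out and -2 when its replicate 2 was. At Sufu it was -1 for HF against IFE with equal numbers of the widest peaks and without HF replicate 2. Some nets of 0 in the main setting took both signs. For touch dome against HF, leaving out 1 library gave -2 to 1 at Gli2, -3 to 1 at Boc and -1 to 3 at Sufu. For touch dome against IFE, the net at Gas1 was 1 within 100 kb and -1 without touch dome replicate 2. The cause was not tested, apart from the smaller window, which leaves out the outer regions of Gas1. With a replicate block, exact sign-flip p-values were 0.5 for every difference, the smallest that 2 pairs allow, and the differences were the same: 13 regions for touch dome against IFE, 19 for HF against IFE and -6 for touch dome against HF. Deviations of same-numbered libraries had correlations of 0.00492 to 0.0605 over all regions near genes and of -0.173 to 0.135 over the 92 regions. The labels do not say whether the numbers mark shared animals or days, and the libraries were not treated as pairs. Depth limits what a missing peak can show.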

Other observations

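Beyond the 50 kb limit, 22 further regions had 1 of these genes as their nearest protein-coding gene within 100 kb. Touch dome libraries had 9 and 15 of them open, HF libraries 18 and 18 and IFE libraries 6 and 6. Of the 22, 4 were open in both touch dome and both HF libraries and in neither IFE library. No share over all regions at this distance from a gene is given here. At Ptch1 all 4 outer regions were closed in IFE, where touch dome libraries had 2 and 3 open and HF libraries 3 and 4. Those open in touch dome and HF were chr13:63627274-63628115 and chr13:63642680-63644588, 53814 and 69220 bp from the gene. At Gas1, 3 and 6 of 8 outer regions were open in touch dome, 7 and 7 in HF and 2 and 2 in IFE. Boc had 2 and 2 of 4 open in touch dome, 3 and 3 in HF and 3 and 3 in IFE, and it held the 1 outer region called toward IFE against touch dome (chr16:44620626-44621083).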
